A study of Homo sapiens with 18 samples.

Results

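MHC class I molecules were followed through 5 genes of the 60668 in the deposited count table, namely the heavy chain genes HLA-B, HLA-C, HLA-E and HLA-F and the light chain gene B2M, taken by their gene symbols. Of these, 4 had enough reads to be tested, and HLA-F did not. The table held 18 poly(A) RNA libraries of IMR90 cells, wild type primary human lung fibroblasts from a single donor, in 6 groups of 3. Irradiated cells (IR), which become senescent after ionizing radiation, received RG7388, HDM201 or the solvent DMSO, and proliferating cells (Prolif) received the same agents. RG7388 and HDM201 inhibit MDM2, the ubiquitin ligase that keeps p53 low, and they were used at different doses. In irradiated cells treatment started on day 4 after irradiation and the cells were collected on day 11. The labels number the libraries 1 to 3 within a group without saying whether they came from separate irradiations, so p-values measure the spread between these libraries, which may be technical. The comparisons ask how irradiation and MDM2 inhibition in the irradiated state bear on this part of antigen presentation.

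A class I molecule is a heavy chain that spans the membrane, held with B2M (beta-2-microglobulin), a small soluble light chain shared by all of them. It is loaded with peptides in the endoplasmic reticulum and shown at the cell surface. HLA-B and HLA-C present peptides to CD8 T cells, and HLA-C is also a main ligand of killer cell immunoglobulin-like receptors on natural killer cells. HLA-E presents leader peptides of other heavy chains to the receptor pair of CD94 and NKG2A on natural killer cells, which inhibits them. HLA-F is expressed at low level in most cells. Without B2M, heavy chains do not reach the surface in stable form. Class I promoters are known to be switched on by interferon through an ISRE bound by IRF factors, by NF-kB, and by NLRC5, which binds together with RFX, CREB and NF-Y proteins.

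HLA-F, HLA-E, HLA-C and HLA-B lie in the MHC on chromosome 6 and B2M lies on chromosome 15. In GENCODE release 44 (hg38) HLA-B occupied chr6:31353872-31367067 and HLA-C chr6:31268749-31272130, both on the minus strand. HLA-E was at chr6:30489509-30494194 and HLA-F at chr6:29722775-29738528, both on the plus strand, and B2M was at chr15:44711358-44718851 on the plus strand. All 5 are protein-coding genes. RefSeq promoters (GRCh38.p14, 250 bases before to 50 bases after the start site) were given for 4 of the 5, HLA-B, HLA-C, HLA-F and B2M. They are shown as a description of the sequences, and whether they bear on the levels was not tested. HLA-E had no promoter entry, so it could not be set beside the others. The stretch printed for each runs from 200 to 41 bases before the start site, 160 bases read 5′ to 3′ along the gene: HLA-B chr6:31357220-31357379 (minus strand), HLA-C chr6:31272133-31272292 (minus strand), HLA-F chr6:29723234-29723393 (plus strand) and B2M chr15:44711317-44711476 (plus strand). Capitals mark matches on either strand to an ISRE core (TTTCNNTTC), the NF-kB consensus, a CRE core (TGACG) or a CCAAT box.
HLA-B: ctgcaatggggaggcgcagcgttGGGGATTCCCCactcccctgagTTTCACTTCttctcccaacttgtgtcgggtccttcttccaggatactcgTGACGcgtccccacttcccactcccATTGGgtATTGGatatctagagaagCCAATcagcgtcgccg
HLA-C: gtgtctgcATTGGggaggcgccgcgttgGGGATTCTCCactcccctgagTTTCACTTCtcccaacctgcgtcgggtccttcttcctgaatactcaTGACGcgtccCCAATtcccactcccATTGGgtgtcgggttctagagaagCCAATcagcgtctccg
HLA-F: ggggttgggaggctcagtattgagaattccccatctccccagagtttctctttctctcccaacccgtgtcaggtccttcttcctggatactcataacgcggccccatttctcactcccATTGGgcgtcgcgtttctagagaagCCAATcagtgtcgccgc
B2M: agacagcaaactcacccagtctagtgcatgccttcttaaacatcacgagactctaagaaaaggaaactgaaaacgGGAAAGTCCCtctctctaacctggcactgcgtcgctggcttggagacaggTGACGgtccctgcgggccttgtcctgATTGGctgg

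HLA-B and HLA-C shared an order of motifs. From the far end towards the start site came the NF-kB consensus, the ISRE core, the CRE core and CCAAT boxes. In HLA-B the NF-kB consensus was matched in 2 overlapping frames, at -177 to -168 and -176 to -167 counted from the start site, and in HLA-C in 1 frame at -172 to -163. The ISRE core lay at -155 to -147 in HLA-B and at -151 to -143 in HLA-C, and the CCAAT box nearest to the start lay at -56 to -52 in both. HLA-C also held a CCAAT box upstream of the NF-kB consensus, at -192 to -188. HLA-F matched the CCAAT box at 2 places and none of the other 3 motifs in the form searched for. B2M matched the NF-kB consensus on the opposite strand at -125 to -116, the CRE core at -75 to -71 and a CCAAT box at -49 to -45. Among 35116 promoters of the same length, 7.66% held the ISRE core, 11.3% the NF-kB consensus, 24.6% the CRE core and 34.6% a CCAAT box. A match describes the letters and is not a measured binding site.

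**Figure D1:**
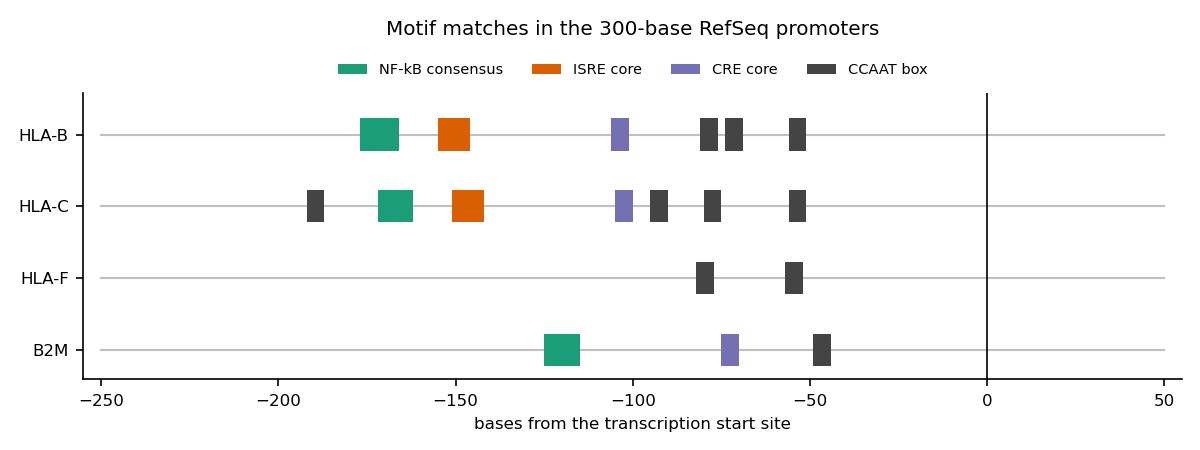
Position of each motif match along the RefSeq promoters of HLA-B, HLA-C, HLA-F and B2M, in bases from the transcription start site (vertical line). HLA-B and HLA-C carry the NF-kB consensus and ISRE core side by side, with the CRE core and CCAAT boxes nearer to the start and 1 further CCAAT box upstream in HLA-C. Only the ISRE core TTTCNNTTC was searched, and longer forms are not drawn.

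Library totals ranged from 21609198 to 66647705 counts, and levels are given as CPM, counts scaled by library total and by TMM factors between 0.894 and 1.18. As a check of the labels, CDKN1A, a p53 target that arrests the cell cycle, averaged 1818 CPM in IR_DMSO cells and 231 CPM in Prolif_DMSO cells. Under the compounds it averaged 748 CPM (Prolif_RG7388) and 628 CPM (Prolif_HDM201) in proliferating cells, and 2110 CPM (IR_RG7388) and 1763 CPM (IR_HDM201) in irradiated cells. The change of CDKN1A against IR_DMSO did not pass the test in IR_RG7388 cells (log2 fold change 0.22 ± 0.11 SE, edgeR adjusted p = 0.158) or in IR_HDM201 cells (-0.04 ± 0.11, adjusted p = 0.820). CXCL10, an interferon-inducible chemokine, averaged 0.982 CPM in IR_RG7388 cells and 1.60 CPM in IR_HDM201 cells, against 46.15 CPM in IR_DMSO cells. The 10 fibroblast markers, collagens among them, were all tested, summed to between 17450 and 57860 CPM in every library, and 7 of the 10 were lower in IR_DMSO than in Prolif_DMSO cells. The leukocyte markers summed to 2.16 to 8.27 CPM. Prolif_HDM201 replicate 3 and IR_DMSO replicate 1 had the lowest mean correlation with the other libraries of their group (0.977 and 0.979), and results that rest on them are given with and without them.

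B2M was the most abundant of the 5 on every scale. Its level was 1130, 1006 and 960 CPM in IR_DMSO libraries 1 to 3, against 470, 545 and 550 CPM in Prolif_DMSO libraries. With RG7388 it was 577, 589 and 595 CPM in irradiated cells and 492, 531 and 502 CPM in proliferating cells. With HDM201 it was 702, 802 and 725 CPM in irradiated cells and 463, 510 and 510 CPM in proliferating cells. The IR_DMSO libraries stood above all others, the IR_HDM201 libraries came next, and the 9 proliferating libraries lay together at the bottom.

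HLA-B gave 480, 372 and 350 CPM in IR_DMSO libraries and 315, 332 and 316 CPM in Prolif_DMSO libraries. In irradiated cells it gave 194, 200 and 200 CPM with RG7388 and 171, 216 and 207 CPM with HDM201. In proliferating cells it gave 308, 329 and 290 CPM with RG7388 and 347, 321 and 261 CPM with HDM201. The 6 irradiated libraries with a compound were the lowest of the 18, below every proliferating library, and IR_DMSO replicate 1 was the highest. Against Prolif_DMSO cells, 49.2% of all genes in IR_RG7388 cells and 50.2% in IR_HDM201 cells passed the edgeR test in either direction. How many genes separate by library in this way was not counted.

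HLA-C gave 350, 300 and 305 CPM in IR_DMSO libraries and 192, 240 and 201 CPM in Prolif_DMSO libraries. In irradiated cells it gave 185, 193 and 191 CPM with RG7388 and 167, 198 and 191 CPM with HDM201. In proliferating cells it gave 226, 226 and 205 CPM with RG7388 and 253, 228 and 190 CPM with HDM201. Here the irradiated libraries with a compound overlapped the Prolif_DMSO libraries, and only the IR_DMSO libraries stood clear of the rest.

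HLA-E behaved otherwise. It gave 409, 387 and 386 CPM in IR_DMSO libraries and 175, 180 and 172 CPM in Prolif_DMSO libraries. In irradiated cells it gave 374, 375 and 395 CPM with RG7388 and 332, 375 and 367 CPM with HDM201. In proliferating cells it gave 222, 238 and 214 CPM with RG7388 and 244, 237 and 191 CPM with HDM201. All 9 irradiated libraries lay above all 9 proliferating libraries, whatever the agent. The share of all genes with such an order over the libraries was not counted, for HLA-E or for the genes above.

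**Figure D2:**
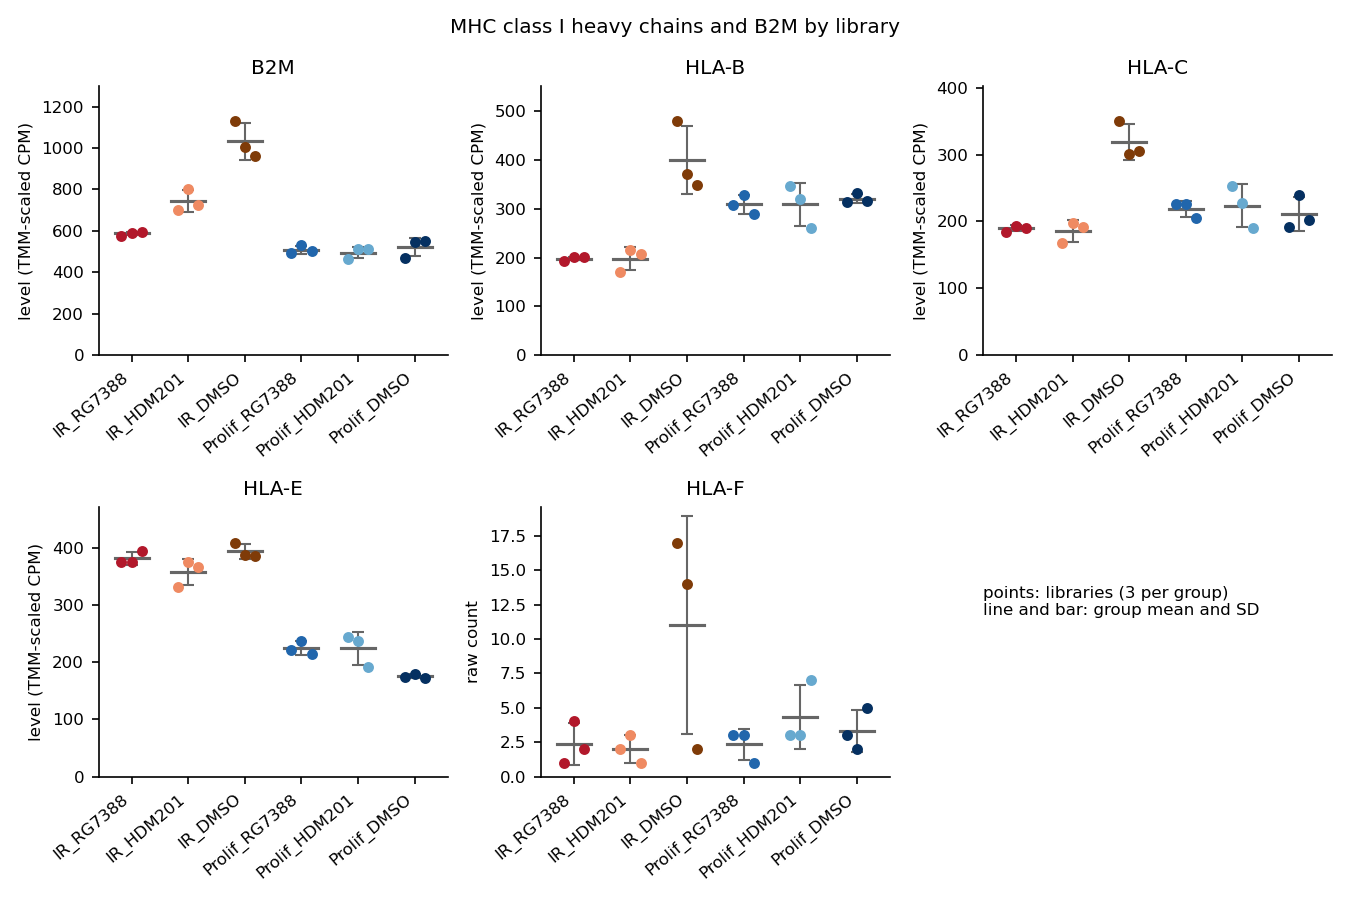
Level of each gene in the 18 libraries by group, as TMM-scaled CPM on the vertical axis and as raw counts for HLA-F (points are libraries, line and bar are the group mean and SD, n = 3). HLA-B, HLA-C and B2M are highest in IR_DMSO and lower in IR_RG7388 and IR_HDM201, while HLA-E stays between 332 and 409 CPM in all 9 irradiated libraries.

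Irradiation raised all 4 tested genes. HLA-E averaged 394 ± 13.0 CPM in IR_DMSO cells and 176 ± 4.01 CPM in Prolif_DMSO cells (SD, n = 3 each), a 2.25-fold rise (log2 fold change 1.17 ± 0.10 SE, edgeR adjusted p = 7.17e-10). B2M averaged 1032 ± 88.0 CPM in IR_DMSO cells and 522 ± 44.4 CPM in Prolif_DMSO cells, a 1.98-fold rise (0.98 ± 0.10, adjusted p = 1.02e-08). HLA-C rose 1.51-fold, with 318.5 ± 27.4 CPM in IR_DMSO cells and 211 ± 25.3 CPM in Prolif_DMSO cells (0.59 ± 0.11, adjusted p = 1.02e-04). HLA-B had the smallest rise, 1.25-fold, with 401 ± 69.7 CPM in IR_DMSO cells and 321 ± 9.80 CPM in Prolif_DMSO cells (0.32 ± 0.12, adjusted p = 0.0301). Among all 18151 genes tested, 26.3% were called higher in this comparison, and 31.8% had all IR_DMSO libraries above all Prolif_DMSO libraries, as the 4 genes did. The HLA-B call rested on single libraries. Without IR_DMSO replicate 1 its log2 fold change was 0.15 (adjusted p = 0.324), and without any 1 of the Prolif_DMSO libraries it was 0.30 to 0.34 with an adjusted p of 0.0572 to 0.0870. On FPKM, a separate estimate from the same reads, HLA-B differed by 0.71 on the log2(FPKM + 1) scale (limma adjusted p = 1.12e-04), with a median over all genes of 0.20 on that scale. In bulk RNA, more RNA per cell and more cells that express a gene cannot be told apart.

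In irradiated cells RG7388 lowered 3 of the 4 tested genes and left HLA-E without a call. HLA-B averaged 198 ± 3.74 CPM in IR_RG7388 cells and 401 ± 69.7 CPM in IR_DMSO cells, 2.02-fold lower (log2 fold change -1.02 ± 0.12 SE, adjusted p = 1.27e-06). HLA-C averaged 190 ± 4.49 CPM in IR_RG7388 cells and 318.5 ± 27.4 CPM in IR_DMSO cells (-0.75 ± 0.11, adjusted p = 2.53e-05). B2M averaged 587 ± 9.20 CPM in IR_RG7388 cells and 1032 ± 88.0 CPM in IR_DMSO cells (-0.81 ± 0.10, adjusted p = 9.22e-07). HLA-E averaged 381 ± 11.5 CPM in IR_RG7388 cells and 394 ± 13.0 CPM in IR_DMSO cells, a log2 fold change of -0.05 with a 95% interval of -0.24 to 0.15 (adjusted p = 0.777). The interval runs from 0.844 to 1.11 times the IR_DMSO level. Of all genes, 11.9% were called lower in this comparison.

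HDM201 gave the same directions against the same IR_DMSO libraries. HLA-B averaged 198 ± 23.9 CPM in IR_HDM201 cells, against 401 ± 69.7 CPM in IR_DMSO cells (log2 fold change -1.02 ± 0.12 SE, adjusted p = 1.60e-06). HLA-C averaged 185 ± 16.02 CPM in IR_HDM201 cells, against 318.5 ± 27.4 CPM in IR_DMSO cells (-0.78 ± 0.11, adjusted p = 1.72e-05). B2M fell to 743 ± 52.5 CPM in IR_HDM201 cells, against 1032 ± 88.0 CPM in IR_DMSO cells (-0.47 ± 0.09, adjusted p = 8.29e-04). HLA-E averaged 358 ± 22.6 CPM in IR_HDM201 cells and 394 ± 13.0 CPM in IR_DMSO cells (-0.14, 95% interval -0.34 to 0.06, adjusted p = 0.328). Of all genes, 11.3% were called lower. The 3 IR_HDM201 libraries lay below the 3 IR_DMSO libraries for HLA-E too, as they did for 19.1% of all genes, and this difference passed on other scales: -0.29 with library totals as the only scaling (adjusted p = 0.00502, median over all genes -0.17) and -0.25 on log2(FPKM + 1) (limma adjusted p = 0.0220, median -0.08). With library totals HLA-E was also called lower in IR_RG7388 cells (-0.24, adjusted p = 0.0169), where the median over all genes was -0.22. Because the doses differed, the values of both compounds stand side by side, and no difference between them is read.

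**Figure D3:**
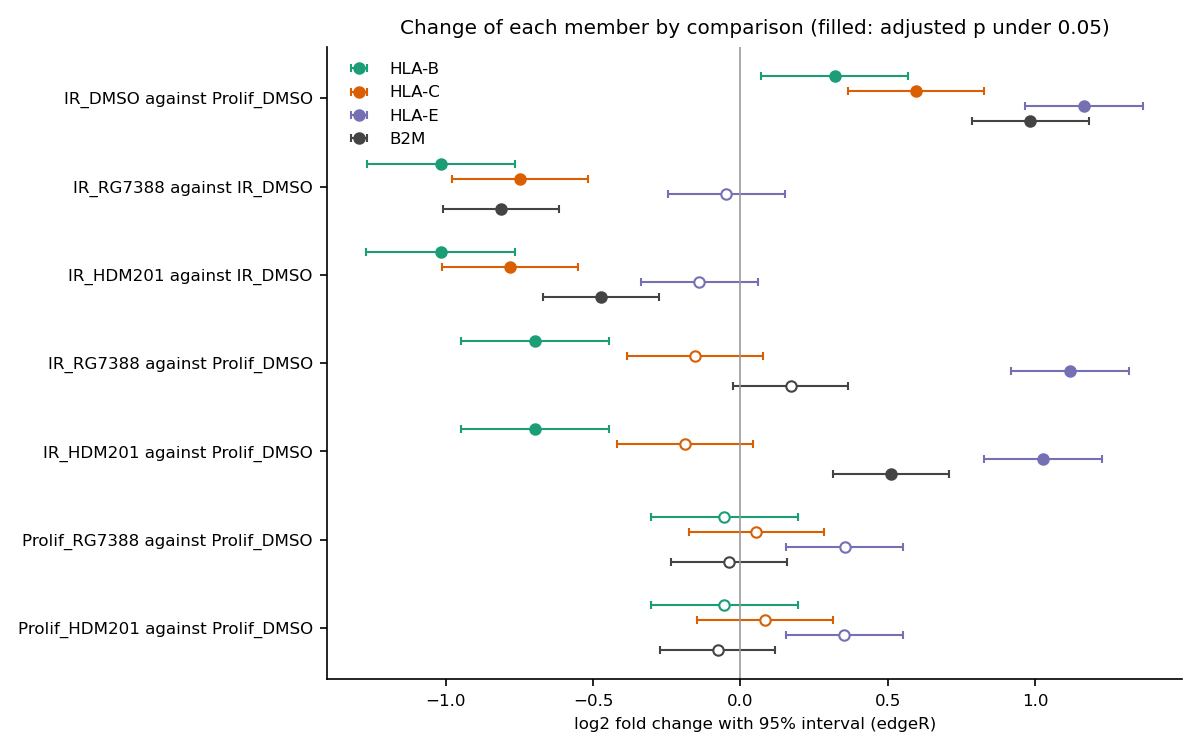
Log2 fold change of HLA-B, HLA-C, HLA-E and B2M with 95% interval in 7 comparisons (edgeR, filled points have an adjusted p under 0.05). HLA-E is the only one of the 4 whose interval crosses 0 for both compounds in irradiated cells, and HLA-B the only one whose interval lies wholly below 0 against Prolif_DMSO in irradiated cells with a compound.

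In proliferating cells neither compound gave a call among the 4 genes, beside 1.54% of all genes called in either direction with RG7388 and 0.700% with HDM201. HLA-E was the 1 of the 4 with an unadjusted p under 0.05 (edgeR, 0.00121 with RG7388 and 0.00126 with HDM201). It averaged 224 ± 12.2 CPM in Prolif_RG7388 cells and 224 ± 28.9 CPM in Prolif_HDM201 cells, against 176 ± 4.01 CPM in Prolif_DMSO cells, and all 6 libraries with a compound were above the 3 with DMSO. Of all genes, 15.2% had every Prolif_RG7388 library and 6.34% every Prolif_HDM201 library above the Prolif_DMSO libraries. Its log2 fold change was 0.35 ± 0.10 with RG7388 (adjusted p = 0.0656) and 0.35 ± 0.10 with HDM201 (adjusted p = 0.101). The call depended on the tool and on 1 library: the DESeq2 Wald test called both (0.34, adjusted p = 0.00603, and 0.35, adjusted p = 0.00763), and without Prolif_HDM201 replicate 3 the HDM201 difference was 0.46 (adjusted p = 0.00180). HLA-B, HLA-C and B2M differed by -0.08 to 0.08 with intervals that held 0.

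The test of whether a compound acted differently in irradiated and in proliferating cells, an interaction term, passed for HLA-B, HLA-C and B2M with RG7388 and for HLA-B, HLA-C and HLA-E with HDM201. For HLA-B the interaction was -0.96 ± 0.17 with RG7388 (adjusted p = 5.36e-04) and -0.96 ± 0.17 with HDM201 (adjusted p = 5.14e-04). For HLA-C it was -0.80 ± 0.16 (adjusted p = 0.00146) and -0.87 ± 0.16 (adjusted p = 6.76e-04), with RG7388 and with HDM201 in turn. For B2M it was -0.78 ± 0.13 with RG7388 (adjusted p = 4.05e-04) and -0.40 ± 0.13 with HDM201 (adjusted p = 0.0705). For HLA-E it was -0.40 ± 0.14 with RG7388 (adjusted p = 0.0766) and -0.49 ± 0.14 with HDM201 (adjusted p = 0.0228). The HLA-E interaction with HDM201 missed the threshold, with an adjusted p of 0.0505 to 0.0677, when 1 of 6 libraries was left out: replicate 1 of IR_HDM201, IR_DMSO or Prolif_DMSO, replicate 2 of Prolif_HDM201, replicate 1 of the same group, or replicate 3 of Prolif_DMSO. The B2M interaction with HDM201 gained a call without Prolif_HDM201 replicate 3 (adjusted p = 0.0440) or IR_HDM201 replicate 2 (adjusted p = 0.0496). Among all genes 7.47% had a called interaction with RG7388 and 8.64% with HDM201.

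Set against Prolif_DMSO cells, irradiated cells with a compound differed from gene to gene. HLA-B was lower in IR_RG7388 cells (log2 fold change -0.70 ± 0.12, adjusted p = 4.35e-05) and in IR_HDM201 cells (-0.70 ± 0.12, adjusted p = 4.27e-05). HLA-E was 2.17-fold higher in IR_RG7388 cells (1.12 ± 0.10, adjusted p = 1.42e-09) and 2.04-fold higher in IR_HDM201 cells (1.03 ± 0.10, adjusted p = 5.95e-09). HLA-C passed with neither compound, at -0.15 (95% interval -0.38 to 0.08) in IR_RG7388 cells and -0.19 (-0.42 to 0.04) in IR_HDM201 cells. B2M was higher in IR_HDM201 cells (0.51 ± 0.09, adjusted p = 9.50e-05) and did not pass in IR_RG7388 cells (0.17 ± 0.09, adjusted p = 0.143). The share of all genes called in either direction was 49.2% for IR_RG7388 and 50.2% for IR_HDM201. The size of the HLA-B fall depended on the table used. On log2(FPKM + 1) it was -0.36 in IR_RG7388 cells (limma adjusted p = 0.0214) and -0.28 in IR_HDM201 cells (adjusted p = 0.0569), with medians over all genes of 0.10 and 0.14.

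The same order appeared with each compound's own proliferating cells as the control, where 44.0% of all genes were called with RG7388 and 46.5% with HDM201. HLA-B was -0.64 ± 0.12 in IR_RG7388 against Prolif_RG7388 cells (adjusted p = 1.42e-04) and -0.64 ± 0.12 in IR_HDM201 against Prolif_HDM201 cells (adjusted p = 1.31e-04). HLA-E was 0.77 ± 0.10 (adjusted p = 7.40e-07) with RG7388 and 0.68 ± 0.10 (adjusted p = 3.96e-06) with HDM201. B2M was 0.21 ± 0.09 (adjusted p = 0.0789) with RG7388 and 0.59 ± 0.09 (adjusted p = 2.15e-05) with HDM201. HLA-C was -0.21 ± 0.11 (adjusted p = 0.136) with RG7388 and -0.27 ± 0.11 with HDM201, where an adjusted p of 0.0499 lay at the threshold and was lost without any 1 of 4 libraries (Prolif_HDM201 replicate 1 or 2, IR_HDM201 replicate 1 or 3, adjusted p 0.0742 to 0.225).

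Ordered by mean CPM over the 6 groups, each gene had few steps larger than the spread. Steps between a group with RG7388 and a group with HDM201 were not read, because the doses differed. For HLA-B the steps that passed were the first, IR_DMSO (401) above Prolif_DMSO (321), and the fourth, Prolif_RG7388 (309) above IR_RG7388 (198), while the step between Prolif_DMSO and Prolif_HDM201 (309) did not pass (adjusted p = 0.927). For HLA-C the step from IR_DMSO (318.5) down to Prolif_HDM201 (224) passed (adjusted p = 5.86e-04). The steps of HLA-C from Prolif_RG7388 (219) to Prolif_DMSO (211) and on to IR_RG7388 (190) did not (adjusted p = 0.895 and 0.264). For HLA-E neither the step from IR_DMSO (394) to IR_RG7388 (381) nor that from Prolif_HDM201 (224) to Prolif_DMSO (176) passed (adjusted p = 0.777 and 0.101). For B2M the step between IR_DMSO (1032) and IR_HDM201 (743) passed, and those from IR_RG7388 (587) to Prolif_DMSO (522) and on to Prolif_RG7388 (508) did not (adjusted p = 0.143 and 0.916).

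Levels of different genes were compared on FPKM, which allows for transcript length. In IR_DMSO cells B2M was at 2352 ± 397 FPKM, HLA-B at 598 ± 21.2, HLA-C at 279 ± 6.16, HLA-E at 176 ± 2.90 and HLA-F at 2.51 ± 0.551 FPKM (SD, n = 3). In Prolif_DMSO cells B2M was at 908 ± 90.1 FPKM, HLA-B at 366 ± 12.7, HLA-C at 154 ± 10.8, HLA-E at 65.9 ± 0.365 and HLA-F at 2.08 ± 1.00 FPKM. The order of the heavy chains was thus HLA-B, HLA-C, HLA-E, HLA-F in both states. In IR_RG7388 cells HLA-C was at 158 ± 7.59 FPKM and HLA-E at 152 ± 2.74 FPKM, and in IR_HDM201 cells they were at 157 ± 4.88 and 147 ± 7.72 FPKM, so that the ranges of HLA-C and HLA-E over the libraries overlapped with both compounds.

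HLA-E made up more of the heavy chain RNA in irradiated cells, and most with a compound. Of the summed FPKM of HLA-B, HLA-C and HLA-E, HLA-E made up 25.1%, 24.1% and 27.7% in IR_RG7388 libraries and 22.4%, 25.4% and 25.3% in IR_HDM201 libraries, against 17.4%, 16.6% and 16.1% in IR_DMSO libraries. In proliferating cells it made up 13.2% to 13.8% with RG7388 and 11.8% to 13.8% with HDM201, against 11.0% to 11.4% with DMSO. All irradiated libraries lay above all proliferating ones, and in irradiated cells all libraries with a compound lay above those with DMSO. Shares of 1 sum are tied to each other, and no test was run on them. The HLA-B share ran the other way, with 48.0 ± 2.35% in IR_RG7388 cells, 49.7 ± 2.90% in IR_HDM201 cells, 56.8 ± 0.679% in IR_DMSO cells and 62.4 ± 1.92% in Prolif_DMSO cells. HLA-C kept 25.9% to 26.5% on average in all 6 groups.

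Set against the light chain in the same library, HLA-B and HLA-C were lower relative to B2M in IR_DMSO than in Prolif_DMSO libraries without overlap, and HLA-E libraries overlapped. The log2 ratio of FPKM to B2M differed by -0.66 for HLA-B, -0.51 for HLA-C and 0.05 for HLA-E between IR_DMSO and Prolif_DMSO cells (two-sided exact permutation p = 0.1, 0.1 and 0.9, where 0.1 is the smallest p that 3 against 3 libraries allow). HLA-E came to 13.2 ± 0.322% of B2M in IR_RG7388 cells and 9.79 ± 0.433% in IR_HDM201 cells, against 7.59 ± 1.07% in IR_DMSO cells. The log2 ratio differed by 0.81 with RG7388 and by 0.38 with HDM201, each without overlap (exact permutation p = 0.1 for both). The HLA-B ratio differed by -0.05 with RG7388 and -0.36 with HDM201 (exact permutation p = 0.8 and 0.2). The HLA-C ratio differed by 0.19 with RG7388 and -0.20 with HDM201 (exact permutation p = 0.3 for both), and for HLA-B and HLA-C the libraries overlapped on this scale. On raw counts they did not overlap. There the HLA-B ratio differed by -0.19 with RG7388 and -0.54 with HDM201, and the HLA-C ratio by 0.06 with RG7388 and -0.31 with HDM201 (exact permutation p = 0.1 for each). In all, 27 such ratios were compared and none can pass at this group size.

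**Figure D4:**
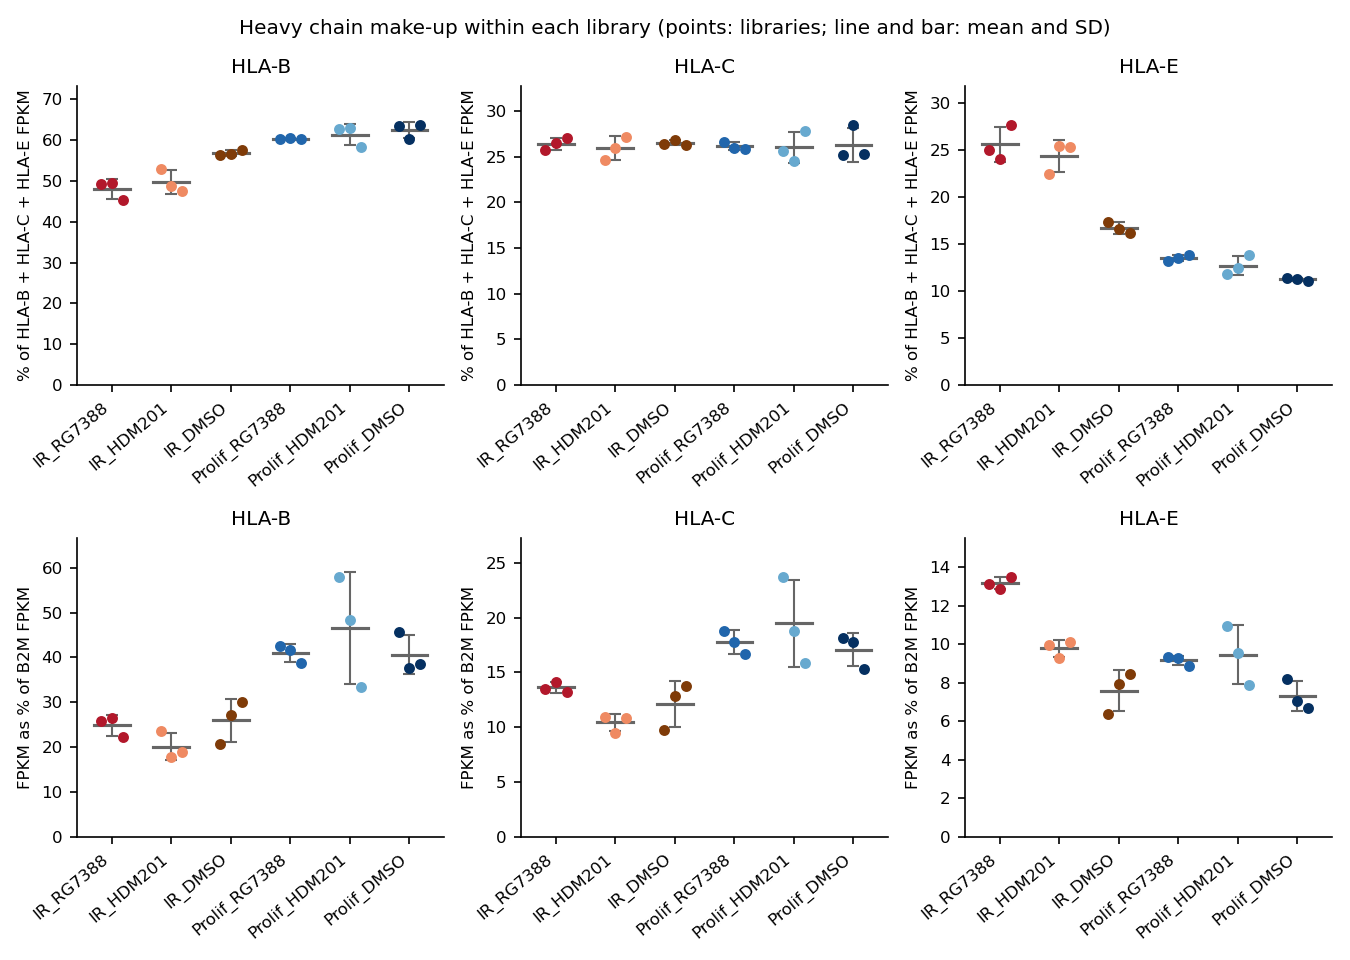
Share of each heavy chain in the summed FPKM of HLA-B, HLA-C and HLA-E (upper row, %) and its FPKM as a percentage of B2M FPKM (lower row) in each library, with group mean and SD (n = 3). The HLA-E share is 22.4% to 27.7% in irradiated cells with a compound, 16.1% to 17.4% in IR_DMSO and 11.0% to 13.8% in proliferating cells, while the HLA-C share is flat.

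HLA-F had too few reads to follow. Its raw counts were 1, 4 and 2 in IR_RG7388 libraries, 2, 3 and 1 in IR_HDM201 libraries and 17, 14 and 2 in IR_DMSO libraries. In proliferating cells they were 3, 3 and 1 with RG7388, 3, 3 and 7 with HDM201 and 3, 2 and 5 with DMSO. The 2 highest counts were both in IR_DMSO, whose replicate 3 lay among the others. With no filter on low counts, no comparison of HLA-F passed (smallest edgeR adjusted p = 0.399). FPKM of HLA-F were 0.615 to 4.28. On that scale it was lower in IR_RG7388 against Prolif_RG7388 cells (-0.87 on log2(FPKM + 1), limma adjusted p = 0.00862) and in IR_HDM201 against Prolif_HDM201 cells (-0.75, adjusted p = 0.0192). In the annotation 42.0% of the bases of its canonical transcript lie under exons of other genes on the opposite strand, among them the antisense gene HLA-F-AS1, and the strand setting of the counting is not given in the sources used here.

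The heavy chains are close relatives, so reads could be placed differently by the counting tool and by the FPKM tool. Of all 50-base windows along the canonical transcript, 2.56% in HLA-B, 6.76% in HLA-C, 6.16% in HLA-E and 1.89% in HLA-F occurred unchanged in a transcript of another gene, and none did in B2M. For HLA-B 23.7% of the canonical transcript also lies under exons of another annotated gene. Of all HLA-B exon bases, 14.8% lie under exons of genes on the opposite strand. FPKM per count, taken relative to the median gene of each library, varied between group means by 0.26 on the log2 scale for HLA-B, 0.10 for HLA-C, 0.05 for HLA-E and 0.09 for B2M. HLA-B was thus the gene whose values depended most on the table. IR_DMSO replicate 1 held its highest CPM of that group, 480, and its lowest FPKM, 580, against 594 and 622 FPKM in replicates 2 and 3.

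Genes that act before and around the class I molecule were described by lists chosen with earlier results of these data known, and no list was tested as a set. Of 6 genes of the immunoproteasome and its activator, which cut proteins into peptides suited to class I, 5 rose and 1 fell after irradiation, and 5 fell with RG7388 and with HDM201 (medians 0.78, -0.59 and -0.57, against 0.05, -0.03 and -0.02 over all genes). Of all genes tested, 26.3% were called higher and 25.3% lower after irradiation, 11.9% were called lower and 10.9% higher with RG7388, and 11.3% lower with HDM201. PSMB9, a catalytic subunit, averaged 0.698 CPM in IR_RG7388 cells and 0.922 CPM in IR_HDM201 cells, against 5.65 CPM in IR_DMSO cells, and 2.37 CPM in Prolif_DMSO cells. PSMB8 averaged 10.0 and 11.9 CPM with RG7388 and HDM201 in irradiated cells, against 31.1 CPM in IR_DMSO cells and 16.2 CPM in Prolif_DMSO cells. The activator subunits PSME1 and PSME2 rose by 0.74 and 0.76 (log2) after irradiation and fell by 0.61 and 0.57 with RG7388.

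Of 10 genes that load peptides, 5 rose and 3 fell after irradiation (median 0.16). With RG7388 1 rose and 5 fell, and with HDM201 4 fell. Among all genes, 11.9% were called lower and 10.9% higher with RG7388, and 11.3% lower with HDM201. The number that fell after irradiation is near the share over all genes, 25.3%, and says nothing about the list. TAP1, a subunit of the peptide transporter, averaged 54.2 CPM in IR_RG7388 cells and 52.6 CPM in IR_HDM201 cells, against 97.4 CPM in IR_DMSO cells and 42.6 CPM in Prolif_DMSO cells. Its log2 fold change was 1.20 after irradiation (adjusted p = 4.79e-09), -0.84 with RG7388 and -0.89 with HDM201. The 3 that fell after irradiation were the chaperones CALR (-0.60), PDIA3 (-0.61) and HSPA5 (-0.63), which fold many proteins beside class I. CALR was the one that rose with RG7388 (0.35, adjusted p = 0.0102).

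Among 18 regulators of class I genes, 5 rose and 6 fell after irradiation, 7 fell with RG7388 and 8 with HDM201, and none rose with a compound in irradiated cells. The counts after irradiation are near the shares over all genes, 26.3% higher and 25.3% lower, and are not a result about the list. With RG7388, 11.9% of all genes were called lower and 10.9% higher. With HDM201, 11.3% were called lower, and 1808 of 18151 genes were called higher. With so few genes called higher, that none rose is not a result about the list either. STAT2, a factor of the interferon response, changed by 1.20 after irradiation, -0.64 with RG7388 and -0.91 with HDM201. RFX5, which binds the X box of MHC promoters, rose by 0.74 after irradiation, and NFYB, a subunit that binds CCAAT boxes, fell by 0.72. Others were chosen after their values were seen: NLRC5, IRF1, NFKB1 and RELA. NLRC5, the class I transactivator, went against the heavy chains after irradiation (-0.30, adjusted p = 0.0422) and fell further with RG7388 (-0.75, adjusted p = 1.01e-04) and HDM201 (-0.66, adjusted p = 4.78e-04). IRF1, an activator of ISRE sites, averaged 13.3 CPM in IR_RG7388 cells and 12.4 CPM in IR_HDM201 cells, against 31.8 CPM in IR_DMSO cells and 22.3 CPM in Prolif_DMSO cells. NFKB1, an NF-kB subunit, averaged 25.95 and 24.1 CPM with RG7388 and HDM201, against 47.2 CPM in IR_DMSO cells and 52.6 CPM in Prolif_DMSO cells. RELA, another NF-kB subunit, differed the other way without a call (edgeR adjusted p = 0.0834 with RG7388 and 0.421 with HDM201). It averaged 125.2 CPM in IR_RG7388 cells and 112.8 CPM in IR_HDM201 cells, against 101.3 CPM in IR_DMSO cells and 124.9 CPM in Prolif_DMSO cells.

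Other molecules that pair with B2M were fewer to measure. Of 8 on the list 4 were tested. CD1D, which presents lipids, is 1 of these 4 and passed the filter on low counts only through the IR_DMSO libraries, so it had to differ and its calls are left out. The other 3 were all called higher after irradiation, as were 26.3% of all genes. Of these 3, none was called with RG7388 and 1, MR1, with HDM201. Among all genes, 11.9% were called lower with RG7388 and 11.3% with HDM201. FCGRT, the neonatal Fc receptor that recycles IgG, averaged 84.7 CPM in IR_RG7388 cells and 82.5 CPM in IR_HDM201 cells, against 84.8 CPM in IR_DMSO cells and 44.5 CPM in Prolif_DMSO cells. MR1, which presents vitamin B metabolites, rose by 1.46 after irradiation (adjusted p = 4.84e-09) and differed by -0.29 with RG7388 (adjusted p = 0.112) and -0.36 with HDM201 (adjusted p = 0.0496). HFE, which regulates iron uptake, rose by 0.61 and was not called with either compound. CD1D averaged 0.0224 CPM in IR_RG7388 cells and 0.105 CPM in IR_HDM201 cells, against 0.524 CPM in IR_DMSO cells and 0.0154 CPM in Prolif_DMSO cells.

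**Figure D5:**
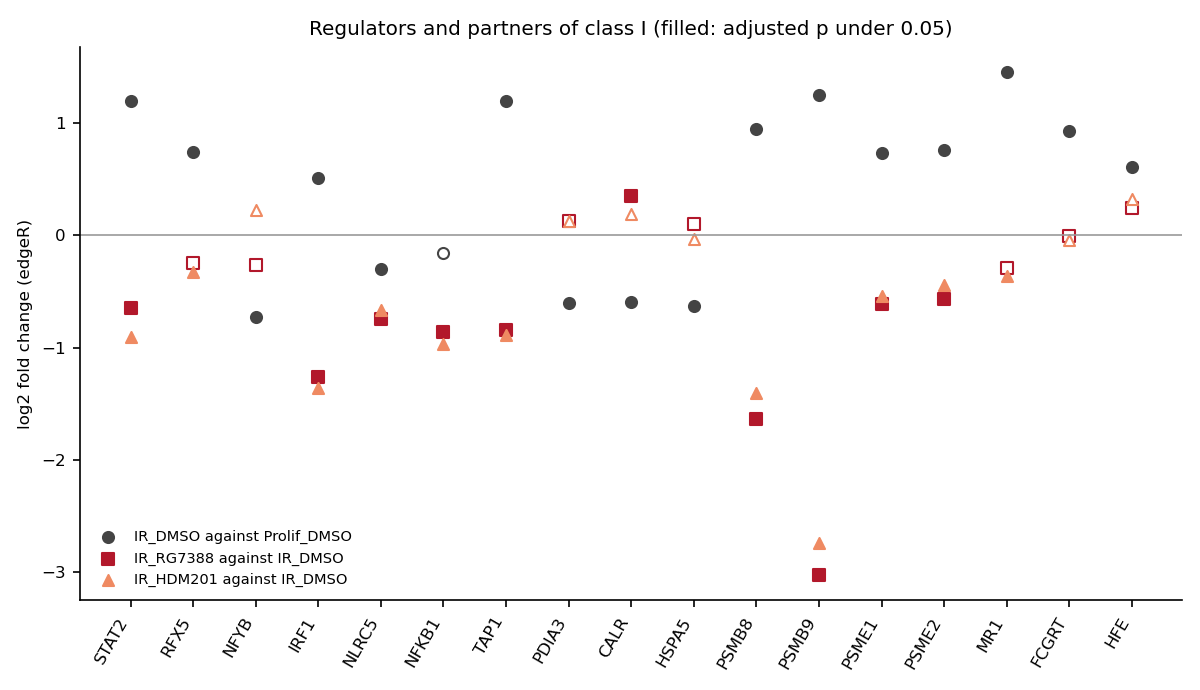
Log2 fold change (edgeR) of regulators, loading factors, proteasome subunits and other partners of B2M after irradiation (circles) and with RG7388 (squares) or HDM201 (triangles) in irradiated cells, filled where the adjusted p is under 0.05. TAP1, PSMB8 and PSMB9 rise after irradiation and fall with both compounds, NLRC5 is lower in all 3 comparisons, and FCGRT lies at 0.00 and -0.04 with the compounds.

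The genes whose pattern was most like each member, by Pearson r of log2 CPM over the 18 libraries among 13197 genes, differed between members. Nearest to HLA-B were IL11 (r = 0.99), IL15RA (0.97), HOXA5 (0.97), TMEM132A (0.97) and CTSK (0.96). Nearest to HLA-C were PPP1R15A, TNFAIP2, SERPINE2, PSMB8 and CSF1 (0.93 to 0.94). Nearest to HLA-E were CES2, FTL, ZSCAN18, SGSH and APLP1 (0.99 each, rounded), and nearest to B2M were PTX3, IFI6, GNG11, ISG15 and CXCL11 (0.96 to 0.98). Among the members, HLA-B and HLA-C had r = 0.85, HLA-E and B2M 0.74, HLA-C and B2M 0.57, HLA-C and HLA-E 0.21, HLA-B and B2M 0.18, and HLA-B and HLA-E -0.30. After group means were removed, the 3 heavy chains had r of 0.83 to 0.86 with each other and 0.16 to 0.445 with B2M. Libraries of a group share their condition and their scaling, so these values describe the pattern only.

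Levels of markers of other cell types were set beside these changes. The 12 leukocyte markers summed to 2.57 to 2.94 CPM in IR_RG7388 libraries and 2.16 to 2.89 CPM in IR_HDM201 libraries, against 3.23 to 3.69 CPM in IR_DMSO libraries and 7.00 to 7.44 CPM in Prolif_DMSO libraries. Of the 12, 4 were tested, and 1 of them, CORO1A, was called lower after irradiation, where 25.3% of all genes were called lower. CORO1A, an actin regulator that made up most of the sum in Prolif_DMSO cells, averaged 0.908 CPM in IR_DMSO cells and 5.46 CPM in Prolif_DMSO cells (adjusted p = 1.72e-08). CD14, a monocyte receptor, averaged 0.911 CPM in IR_DMSO cells and 0.106 CPM in Prolif_DMSO cells. It passed the filter on low counts only through irradiated libraries, so it had to be higher there and its call is left out. PTPRC, which marks leukocytes, was too low to test and averaged 0.118 CPM in IR_DMSO cells and 0.107 CPM in Prolif_DMSO cells. These 3 were chosen after their values were seen. No marker on the list was at 0 in every library. The 8 endothelial markers summed to 118 to 138 CPM in IR_DMSO libraries and 84.1 to 91.2 CPM in Prolif_DMSO libraries, nearly all of it TEK (125 and 85.1 CPM on average). The 8 epithelial markers, mostly keratins, summed to 364 to 424 CPM in IR_RG7388 libraries and 288 to 403 CPM in IR_HDM201 libraries, against 155 to 172 CPM in IR_DMSO libraries and 274 to 292 CPM in Prolif_DMSO libraries. The part of other cells in the class I values was not tested.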

How the data were processed

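Poly(A) RNA of IMR90 cells was sequenced in 18 libraries (6 groups of 3). The authors aligned reads to hg38 with STAR, deposited raw counts per gene made with HTSeq, and deposited FPKM estimated with Cufflinks (processing notes of the submitters). Tool versions, the annotation release and the strand setting were not given in any source used here. Reads of all heavy chains met 1 reference allele each.

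Of 60668 genes, 45 copies on the Y chromosome of pseudoautosomal genes were left out, and 18151 passed filterByExpr of edgeR 4.0.16 (R 4.3.3). Groups were taken from the labels. All 18 libraries entered 1 quasi-likelihood fit (robust, TMM factors), p-values were Benjamini-Hochberg adjusted over all genes tested, and calls have an adjusted p under 0.05. SE was taken as the absolute log2 fold change over the square root of F. FPKM were tested with limma 3.58.1 on log2(FPKM + 1) over genes with at least 1 FPKM in 3 libraries, of 26986 genes with all values. Ratios to B2M were compared by two-sided exact permutation. The alternatives were DESeq2 1.42.0 (size factors or its Wald test), library totals, filters, a stricter threshold, FPKM with another pseudocount, the replicate number as a block, fits on the compared groups alone and leaving out each library. A fit without both libraries that stood apart was added after seeing the data. Totals were 21609198 to 66647705 counts, and the tested members had 4173 to 53148 counts per library. Of the file's gene IDs, 60340 (99.46%) matched GENCODE release 44.

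The members and lists were chosen with earlier results of these data known. Genes named were the members, the 5 genes nearest to each by Pearson r (at least 1 CPM on average), up to 4 genes per list with the smallest p after irradiation, and CDKN1A, MDM2 and CXCL10. Others are said to be chosen later. Tests were tried on simulated data first. Some symbols are not reported here.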

Additional observations from a re-analysis of the deposited data

Results flagged for a closer look

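The effect of a compound differed between irradiated and proliferating cells by the interaction test in 6 cases. With RG7388 the difference in log2 fold change (irradiated minus proliferating) was -0.962 for HLA-B, -0.8029 for HLA-C and -0.7753 for B2M. With HDM201 it was -0.9636 for HLA-B, -0.8657 for HLA-C and -0.4918 for HLA-E. Both compounds were set against the same DMSO libraries.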

How the results depend on the processing

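No called result turned its direction. Among results that were not called, 7 fold changes and 6 ratios to B2M, none over 0.1868 in size as reported, took the other sign in some alternative. On log2(FPKM + 1) HLA-B was 0.0072 in Prolif_RG7388 and 0.1197 in Prolif_HDM201 against Prolif_DMSO, and HLA-C was 0.0307 in IR_RG7388 and 0.0232 in IR_HDM201 against Prolif_DMSO, none of them called. The HLA-B rise after irradiation (0.3199) had an adjusted p of 0.0301 and so missed 0.01. It was 0.3032 (adjusted p = 0.0583) on the compared groups alone, 0.1461 to 0.3931 with single libraries left out and 0.1462 (adjusted p = 0.159) without both libraries that stood apart. The HLA-B fall in IR_HDM201 against Prolif_DMSO was -0.2845 on log2(FPKM + 1), filtered or not, and -0.2853 on log2(FPKM + 0.1), and was not called.

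HLA-C in IR_HDM201 against Prolif_HDM201 (-0.271, adjusted p = 0.0499) lost its call at the stricter threshold of 0.01 and in these fits: -0.2587 (DESeq2 size factors), -0.1155 (library totals), -0.2276 (no filter), -0.2832 (compared groups), -0.2578 (DESeq2), -0.1054 (FPKM + 1, filtered or not), and -0.1059 (FPKM + 0.1). With single libraries left out it was -0.3766 to -0.1819 and lost the call in 4 of 6 cases. HLA-C was called in IR_RG7388 against Prolif_DMSO on the compared groups (-0.163), in IR_RG7388 against Prolif_RG7388 on the compared groups (-0.1941) and without both libraries apart (-0.2241), and in IR_HDM201 against Prolif_DMSO without both (-0.2056).

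HLA-E was called lower in irradiated cells with library totals (-0.2361 with RG7388, -0.2881 with HDM201) and, with HDM201, on FPKM (-0.2529, filtered or not, and -0.2544). It was called in Prolif_RG7388 cells with library totals (0.2999), compared groups (0.3287), DESeq2 (0.3434), filtered FPKM (0.3173) and without both libraries (0.3541), and in Prolif_HDM201 cells with library totals (0.3398), DESeq2 (0.3482) and without both (0.4627). With single libraries left out the Prolif_HDM201 value was 0.2866 to 0.4561 and was called in 1 of 6 cases, without Prolif_HDM201 replicate 3, so that 1 member was called in place of 0. Its RG7388 interaction was called with library totals (-0.536), a filter of 1 CPM (-0.4099), compared groups (-0.4026), DESeq2 (-0.3939), FPKM (-0.5217, filtered or not, and -0.5267) and without both (-0.3672). Its HDM201 interaction was not called with no filter (-0.4694), compared groups (-0.4954) or at 0.01 (-0.4918), and ranged from -0.5952 to -0.4274 over single libraries left out.

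The B2M interaction with HDM201 was called with library totals (-0.5459), a filter of 1 CPM (-0.4168), DESeq2 (-0.3891) and FPKM (-0.5852, filtered or not, and -0.5855), and ranged from -0.4544 to -0.32 over single libraries left out. B2M was called higher in IR_RG7388 than in Prolif_DMSO cells with library totals (0.2747), compared groups (0.1604) and FPKM (0.3524, filtered or not, and 0.3527), and than in Prolif_RG7388 cells with library totals (0.3653), compared groups (0.2225), DESeq2 (0.2214), FPKM (0.3627, filtered or not, and 0.3631) and without both (0.1921). Members called became 4 in IR_RG7388 against Prolif_DMSO (compared groups) and against Prolif_RG7388 (compared groups, or without both). Called steps in the order of levels became 3 (library totals) or 2 (DESeq2, without both) for HLA-E, 2 for B2M (library totals, DESeq2, FPKM, without both) and 1 for HLA-B (0.01, without both). With DESeq2 and without both libraries, the further B2M step was that between the compounds, which is not read because the doses differed. From counts, the log2 ratio of HLA-B to B2M was -0.8702 in IR_RG7388 and -1.216 in IR_HDM201 against Prolif_DMSO, and -0.8495 in IR_RG7388 against Prolif_RG7388. The cause of these changes was not tested.

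The replicate numbers did not pair the libraries: 9 of 45 same-numbered pairs had a correlation over 0.1, and 8 of 18 libraries correlated best with their own number. With the replicate block, HLA-C in IR_HDM201 against Prolif_HDM201 was -0.2671 (adjusted p = 0.0535), and no other call of the members changed. Depth limits only HLA-F, with at most 17 counts in a library.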

Other observations

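MHC class II genes, which present peptides to CD4 T cells and in fibroblasts follow interferon gamma, were thinly measured. Of 12 on the list 6 were tested. One of these, HLA-DMB, passed the filter on low counts only through the IR_DMSO libraries (0.479 CPM there and at most 0.0907 CPM on average in any other group), so it had to differ and its call after irradiation is left out. Of the other 5, 2 rose after irradiation, HLA-DMA by 1.46 (log2) and HLA-DPB1 by 1.07, where 26.3% of all genes were called higher. None was called with RG7388, and 1, CD74, fell with HDM201 (-0.77, edgeR adjusted p = 0.0339). Among all genes, 11.9% were called lower with RG7388 and 11.3% with HDM201. With so few genes these counts are not a result about the list. HLA-DOB differed by 1.17 without a call (edgeR adjusted p = 0.0937).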
